A study of Rattus norvegicus with 6 samples.

Results

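The anaphase-promoting complex, the ubiquitin ligase whose activity ends mitosis, was examined through 10 genes in replicating and quiescent rat β-cells. All 10 genes were found by name among the non-control probes of the arrays, with 15 probes and 26 spots out of 45598 probes that carry 36174 gene names. The members were 2 coactivators (Cdc20 and Fzr1), 2 ubiquitin-conjugating enzymes or E2s (Ube2c and Ube2s), the inhibitor Fbxo5, 4 core subunits (Cdc16, Cdc23, Cdc26 and Cdc27) and Cdca3. The last of these is not a component of the complex. It is known as a trigger of mitotic entry that works through an SCF-type ligase and is itself degraded through the complex.

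Islets of male Wistar rats were cultured with the thymidine analogue EdU, dispersed, stained with Newport Green, fixed and permeabilised. Cells gated for size, granularity and Newport Green were then sorted as EdU-positive (replicating) or EdU-negative (quiescent) β-cells. No genotype, drug or further treatment set the groups apart, and both were fixed and stained alike. There were 3 islet preparations of 4 rats each, and every preparation gave 1 replicating and 1 quiescent array. EdU stays in a cell after it has made DNA, so the positive fraction is a mixture of cell cycle stages. It also held far fewer cells than the negative fraction, and the number of sorted cells cannot be told apart from the group.

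As background, the complex joins ubiquitin to proteins and so marks them for the proteasome. Cdc20 carries substrates to it in mitosis, and Fzr1 (also called Cdh1) takes over in late mitosis and G1. Ube2c places the first ubiquitin on a substrate and Ube2s lengthens the chain. Fbxo5 (Emi1) holds the complex inactive through S and G2. Adult β-cells rarely divide, and most of them rest outside the cycle.

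The sequences of the probes for the coactivators and the E2s are shown because these pairs are compared below. With 3 preparations the difference between them was not resolved. Each is written 5′ to 3′ and was taken from the array files, which place it on the rat build rn4. Capitals mark the bases at which the overlapping probes for Ube2c differ.
Cdc20, within chr5:138913267-138914237: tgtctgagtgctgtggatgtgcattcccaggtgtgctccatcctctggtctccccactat
Fzr1, within chr7:9825959-9826682: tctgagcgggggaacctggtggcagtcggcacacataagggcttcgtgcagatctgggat
Ube2c, brighter probe, within chr3:155802226-155802557: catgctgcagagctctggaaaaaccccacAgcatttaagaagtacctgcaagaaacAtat
Ube2c, dimmer probe, within chr3:155802247-155802578: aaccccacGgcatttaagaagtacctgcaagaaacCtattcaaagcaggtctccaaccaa
Ube2s, brighter probe, chr1:67748971-67749030: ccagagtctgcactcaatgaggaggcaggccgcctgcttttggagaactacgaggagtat
The spans of 971 bases for Cdc20 and 724 bases for Fzr1 are wider than the 60 bases of a probe. The files do not state the exon of any probe. Over the 39 bases they share, the Ube2c probes differ at 2 positions, A30G and A57C, counted from the 5′ end of the brighter probe and with its base first. RefSeq lists 4 pseudogenes and 1 further Ube2c-like gene for Ube2c and 4 pseudogenes for Ube2s, so transcripts of such copies could contribute to these values.

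The values below are the normalized log2 values that the authors deposited, and a log2 ratio is the replicating minus the quiescent value within a preparation. A probe was called when its unadjusted p in limma was at most 0.05 and its absolute log2 ratio was at least 1, the thresholds of the study. At these thresholds the study reports more genes than were called here, most of them up-regulated. Here 1997 probes were called higher and 1887 lower, so its counts were not reproduced. Of the 15 probes, 5 were called higher in the replicating β-cells and 0 were called lower, where 4.38% of all probes were called higher and 4.14% lower. The 5 probes belonged to Ube2c (both probes), Ube2s, Fbxo5 and Cdca3. At an adjusted p under 0.05 (limma, Benjamini-Hochberg over all probes) 0 of the 15 passed, and the share over all probes was likewise 0%. The unadjusted p was at most 0.05 for 5 of the 15 probes and for 9.38% of all probes. The median log2 ratio of the 15 probes was 1.57, against -0.08 over all probes. With the brightest probe of each gene, 4 of the 10 genes were called higher, and 0 lower, against 4.18% and 4.47% of gene names on the array. All replicating values were above all quiescent ones for 6 of the 15 probes (8.89% of all probes) and below them for 0 (7.11% of all probes). The mean ratio was above 0 for 12 of the 15 (44.6% of all probes), and the ratio was above 0 in every preparation for 8 of them (15.4% of all probes). The samples are sorted fractions, so fewer cells of a type and less RNA per cell cannot be told apart.

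The quiescent arrays were unlike one another. Across all probes Pearson's r was 0.967 to 0.986 between replicating arrays and 0.647 to 0.868 between quiescent arrays, with quiescent array 2 farthest from the others. Quiescent array 3 was closer to the replicating arrays (0.943 to 0.968) than to quiescent arrays 1 (0.868) and 2 (0.647). No spot was saturated. Probes well above background were 96.4% and 98.4% on quiescent arrays 1 and 2 and 80.7% to 87.3% on the others. Quiescent array 2 had 1583 outlier spots, against 252 to 299 on the others. The standard deviation of the log2 ratios over all probes was 1.01, 1.61 and 0.51 in preparations 1, 2 and 3, so that a ratio of a given size stood out more in preparation 3. Among proliferation markers, Mki67, Pcna, Top2a, Mcm2 and Mcm6 were all called higher (5 of 5, median log2 ratio 2.33), but only 2 were without preparation 1 and 3 with 75th percentile scaling. Calls over all probes changed too. They were 509 higher and 65 lower without preparation 1 and 647 and 3071 with that scaling, against 1997 and 1887. Among β-cell markers, 0 of 7 were called higher and 1 lower, where 4.18% and 4.47% of gene names were. The gene called was Mafa (log2 ratio -1.01, unadjusted p = 0.032 in limma). The number called lower was 0 without preparation 1 or 3, and 2 without preparation 2. It was also 0 with normexp offset 0 or 16 and with 75th percentile scaling, and it differed in 7 of 14 alternatives. The insulin genes had ratios of 0.25 (Ins1) and 0.42 (Ins2), and neither was called. By qPCR the study reports lower Ins2 in replicating cells, a direction that these array means do not share.

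**Figure D1:**
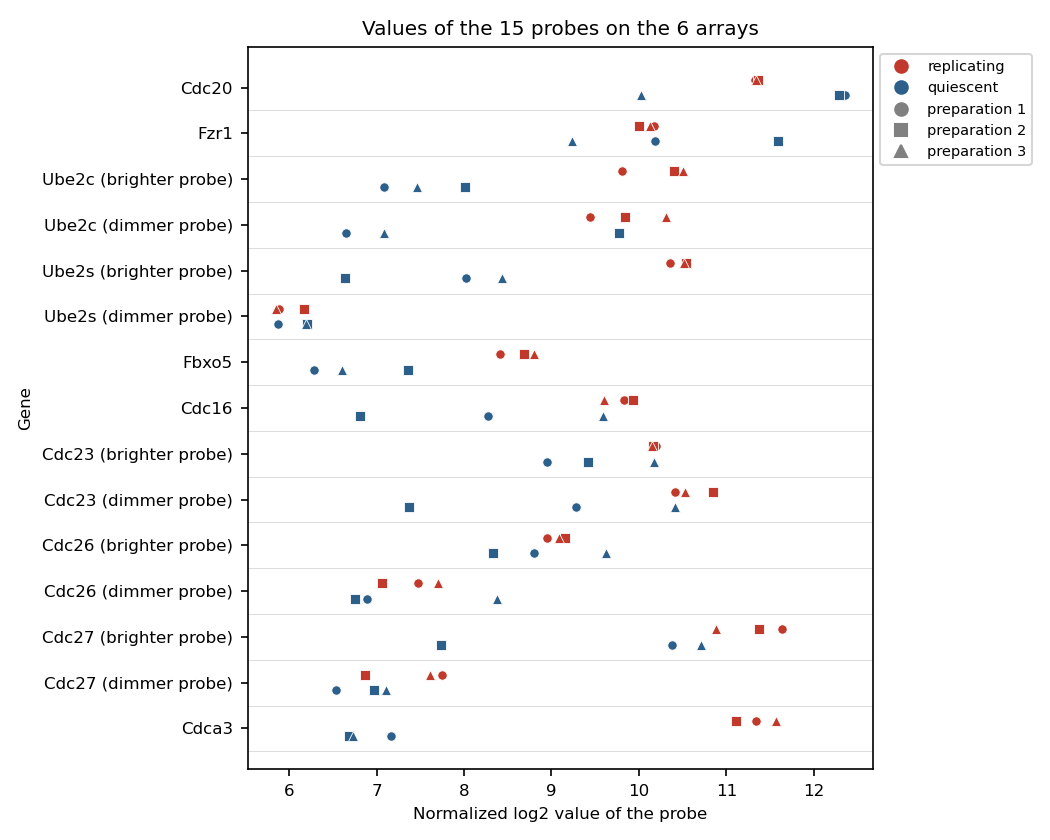
Normalized log2 values (horizontal axis) of the 15 probes (rows), with replicating arrays in red, quiescent arrays in blue and 1 symbol per preparation. The red points of Cdca3, Ube2s (brighter probe), Ube2c (brighter probe) and Fbxo5 lie to the right of all blue ones. So do those of Cdc16 and Cdc27 (brighter probe), by a smaller margin. The red points of Cdc20 and Fzr1 lie between the blue points.

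The coactivators were not called. Cdc20, which starts anaphase by directing securin and cyclin B to destruction, had values of 11.33, 11.37 and 11.34 in the replicating cells of the 3 preparations, in order. In quiescent cells it read 12.35, 12.29 and 10.02. The replicating values were almost equal and sat between the quiescent ones, so the groups overlapped. The log2 ratios were -1.02, -0.92 and 1.32, with a mean of -0.21 (SE 0.57, n = 3 preparations, adjusted p = 0.873 in limma, 95% interval -1.65 to 1.23). Within preparation 3 the ratio of Cdc20 was above 98.4% of all probes, and in preparation 1 above 14.0%. The interval includes both a rise and a fall of more than 1 on the log2 scale, and the direction of the mean turned to 0.20 without preparation 1 and to 0.15 without preparation 2.

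Fzr1, the coactivator of G1 and of resting cells, read 10.17, 10.01 and 10.13 in replicating cells. In quiescent cells it read 10.18, 11.59 and 9.24, again with the replicating values inside the quiescent range. Its log2 ratios were -0.01, -1.59 and 0.89, with a mean of -0.24 (SE 0.55, adjusted p = 0.848 in limma, 95% interval -1.62 to 1.15). Within preparation 3 the ratio of Fzr1 was above 96.5% of all probes, and in preparation 2 above 16.5%. Without preparation 2 the mean was 0.44. Both coactivators had their highest ratio in preparation 3, and the quiescent array of that preparation gave the lowest value of each.

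Both E2s were called higher. Ube2c read 9.81, 10.40 and 10.51 with its brighter probe on the replicating arrays. The quiescent arrays gave 7.09, 8.02 and 7.46, and the groups did not overlap. The ratios of 2.72, 2.39 and 3.04 averaged 2.72 (SE 0.33, 6.57-fold, unadjusted p = 3.65e-04, adjusted p = 0.186 in limma). These ratios ranged less between preparations than those of the other Ube2c probe and of the brighter Ube2s probe.

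The dimmer Ube2c probe, which shares most of its bases with the other, read 9.44, 9.84 and 10.31 in replicating cells. In quiescent cells it read 6.65, 9.77 and 7.08. Quiescent array 2 reached the replicating values on this probe but not on the brighter one, so the groups overlapped. The ratios were 2.79, 0.08 and 3.22 (mean 2.03, SE 0.69, adjusted p = 0.483 in limma). It was called with all preparations (unadjusted p = 0.0302), but not without preparation 1 (log2 ratio 1.65, unadjusted p = 0.151 in limma) or without preparation 3 (1.43, unadjusted p = 0.132). Of all probes 509 were called higher without preparation 1 and 4940 without preparation 3, against 1997 with all preparations. The dimmer Ube2c probe was also tried under another scaling. With 75th percentile scaling it was not called either (2.63, unadjusted p = 0.0598 in limma).

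Ube2s, the E2 that extends chains, read 10.36, 10.54 and 10.51 with its brighter probe in replicating cells. In quiescent cells it read 8.02, 6.64 and 8.43. The groups did not overlap, and the quiescent spread (SD 0.94) was wider than the replicating (SD 0.10). The ratios of 2.34, 3.90 and 2.08 averaged 2.77 (SE 0.47, 6.83-fold, unadjusted p = 0.00175, adjusted p = 0.338 in limma). In preparations 1, 2 and 3 this ratio was above 99.3%, 99.3% and 99.4% of all probes. The dimmer Ube2s probe has no genome position in the files and was well above background on 0 of 3 replicating and 1 of 3 quiescent arrays, so no direction is read from it.

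Fbxo5, the inhibitor that keeps the complex off in S and G2, was called higher. It read 8.41, 8.68 and 8.80 in replicating cells. It read 6.29, 7.36 and 6.60 in quiescent cells, and the groups did not overlap. The log2 ratios were 2.12, 1.32 and 2.20, with a mean of 1.88 (SE 0.35, 3.69-fold, unadjusted p = 0.00284, adjusted p = 0.433 in limma). With Feature Extraction's processed signal scaled to the 75th percentile of each array it was not called (log2 ratio 2.44, unadjusted p = 0.0547 in limma).

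**Figure D2:**
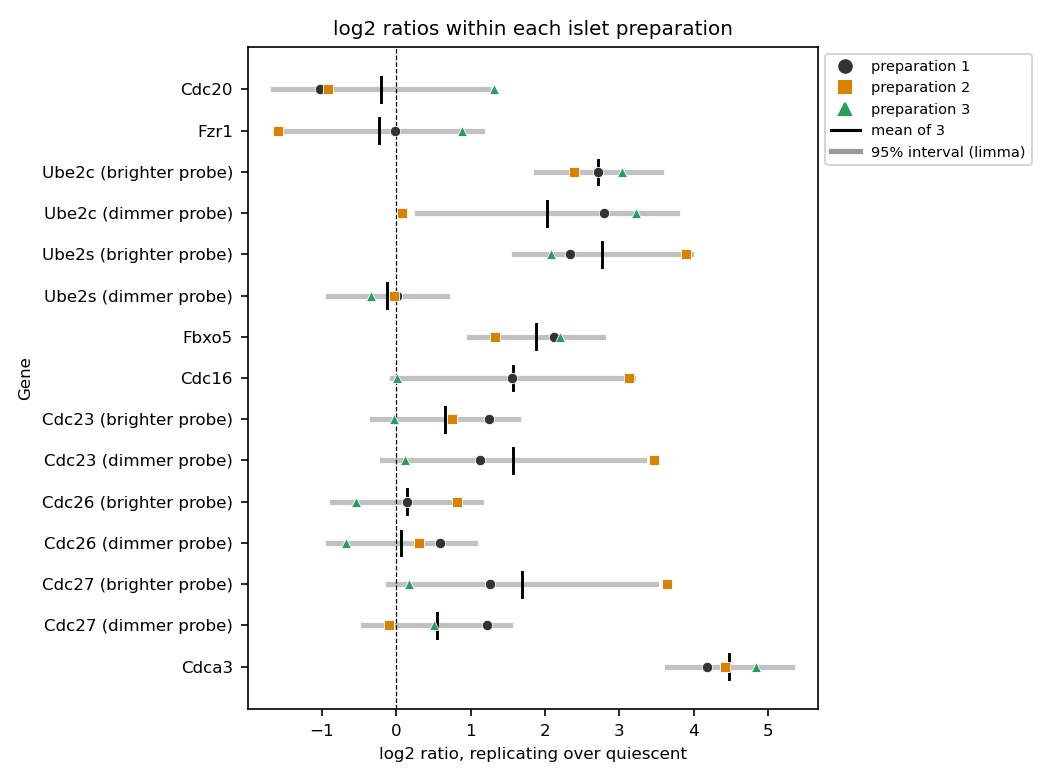
The log2 ratio of replicating over quiescent β-cells (horizontal axis) for each of the 15 probes (rows) in the 3 preparations, with the mean and its 95% interval from limma. The dimmer Ube2s probe is plotted although it was not above background in replicating cells. Cdca3 lies at 4.18 to 4.83, the E2s (brighter probes) at 2.08 to 3.90, and the coactivators fall on both sides of 0.

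The core subunits were not called, and their ratios differed between preparations. Cdc16, a scaffold subunit built of tetratricopeptide repeats, read 9.83, 9.94 and 9.60 on the replicating arrays. It read 8.28, 6.81 and 9.59 on the quiescent arrays, so that all replicating values were above all quiescent ones, in preparation 3 by 0.01 alone. Its ratios of 1.55, 3.13 and 0.01 averaged 1.57 (SE 0.64, unadjusted p = 0.0563, adjusted p = 0.483 in limma). Without preparation 3 it was called, with a log2 ratio of 2.34 (unadjusted p = 0.0115 in limma). Calls were more frequent in that setting, with 4940 of 45598 probes called higher, against 1997 with all preparations.

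Cdc27, a related scaffold subunit that takes part in binding the coactivators, read 11.64, 11.37 and 10.88 in replicating cells with its brighter probe. It read 10.38, 7.74 and 10.71 in quiescent cells. The groups did not overlap, and quiescent array 2 was the lowest by far. Ratios of 1.26, 3.64 and 0.17 gave a mean of 1.69 (SE 0.71, unadjusted p = 0.0604, adjusted p = 0.483 in limma). Without preparation 3 the mean was 2.45 and the probe was called (unadjusted p = 0.0226 in limma), as were 4940 probes of the array in the same direction. The dimmer Cdc27 probe did not share the large ratio of preparation 2. It gave 1.22, -0.10 and 0.51, with a mean of 0.55 (unadjusted p = 0.218 in limma).

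Cdc23, another repeat subunit of the scaffold, read 10.19, 10.16 and 10.14 in replicating cells with its brighter probe. The quiescent values were 8.94, 9.42 and 10.17, the last of them level with the replicating arrays. The ratios were 1.25, 0.75 and -0.03, with a mean of 0.65 (unadjusted p = 0.148 in limma). The dimmer Cdc23 probe gave 1.13, 3.47 and 0.11 (mean 1.57, SE 0.69, unadjusted p = 0.0701 in limma). It was called without preparation 3 (log2 ratio 2.30, unadjusted p = 0.027 in limma), where 4940 of 45598 probes were called higher. Cdc26, a small subunit that stabilises Cdc16, had the smallest mean ratio of the 4. Its brighter probe read 8.95, 9.15 and 9.08 in replicating cells and 8.80, 8.33 and 9.62 in quiescent cells, with a mean ratio of 0.14 (unadjusted p = 0.731 in limma). The dimmer Cdc26 probe had a mean ratio of 0.07, with 0.59, 0.31 and -0.68 by preparation. Over the brightest probes of these 4 subunits the median ratio was 1.25, 1.97 and -0.01 in preparations 1, 2 and 3, where the median of all probes was -0.02, -0.07 and -0.04.

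Cdca3 had the largest ratio of the members. It read 11.34, 11.11 and 11.56 in replicating cells as the mean of 10 spots. In quiescent cells it read 7.16, 6.69 and 6.73, and the groups were far apart. The log2 ratios of 4.18, 4.42 and 4.83 averaged 4.48 (SE 0.33, 22.3-fold, unadjusted p = 3.06e-05, adjusted p = 0.105 in limma, 95% interval 3.64 to 5.32). The study lists Cdca3 among its leading genes, chosen on these same arrays, so this value is not independent evidence.

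The roles were set against each other within preparations, with the mean ratio of the brightest probes of each role. The mean ratio of the E2s was 2.53, 3.14 and 2.56, that of the core subunits 1.05, 2.08 and -0.10, and that of the coactivators -0.52, -1.25 and 1.11. The E2s exceeded the coactivators by 3.05, 4.40 and 1.46 (mean 2.97, in 3 of 3 preparations). They exceeded the core subunits by 1.48, 1.06 and 2.66 (mean 1.73, in 3 of 3). Core subunits minus coactivators gave 1.57, 3.34 and -1.20. With 3 preparations an exact two-sided sign-flip permutation test cannot go below p = 0.25, the value of both E2 comparisons, and the third gave an exact p = 0.5 (0.375, 0.375 and 0.5 after Benjamini-Hochberg over the 3 comparisons). This exact test therefore cannot pass 0.05 for any of these differences.

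All subunits of the core that the arrays name were then read. Of 14 listed genes 13 had a probe (Anapc16 was not found by name), and 0 were called in either direction. A ratio above 0 was seen for 11 of 13, against 42.2% of gene names on the array, with a median of 0.44. Of the 9 subunits outside the members, Anapc1, the largest scaffold protein, came nearest to the threshold with 0.87 (0.90, 1.47 and 0.24 by preparation, unadjusted p = 0.068 in limma). Anapc2 and Anapc11, which form the catalytic centre, had 0.41 and 0.08. Anapc4 had 0.58, Anapc7 0.70, Anapc13 0.27, Anapc15 0.44 and Anapc5 -0.10. Anapc10, which helps to bind substrates, was the lowest at -0.64 (-1.23, -0.49 and -0.20, unadjusted p = 0.136 in limma). These are values of the brightest probes. Dimmer probes of Anapc11 (-0.34) and Anapc13 (-0.25) had the opposite sign. Those of Anapc7 (0.51), Anapc10 (-0.20) and Anapc15 (0.43), and another of Anapc13 (0.27), had the same sign. By preparation, the ratio was above 0 for 11, 11 and 4 of the 13 genes. Without preparation 3 the number called higher was 3, where 4940 of 45598 probes were. The median of the 13 was 0.62, 0.82 and -0.06 in preparations 1, 2 and 3.

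**Figure D3:**
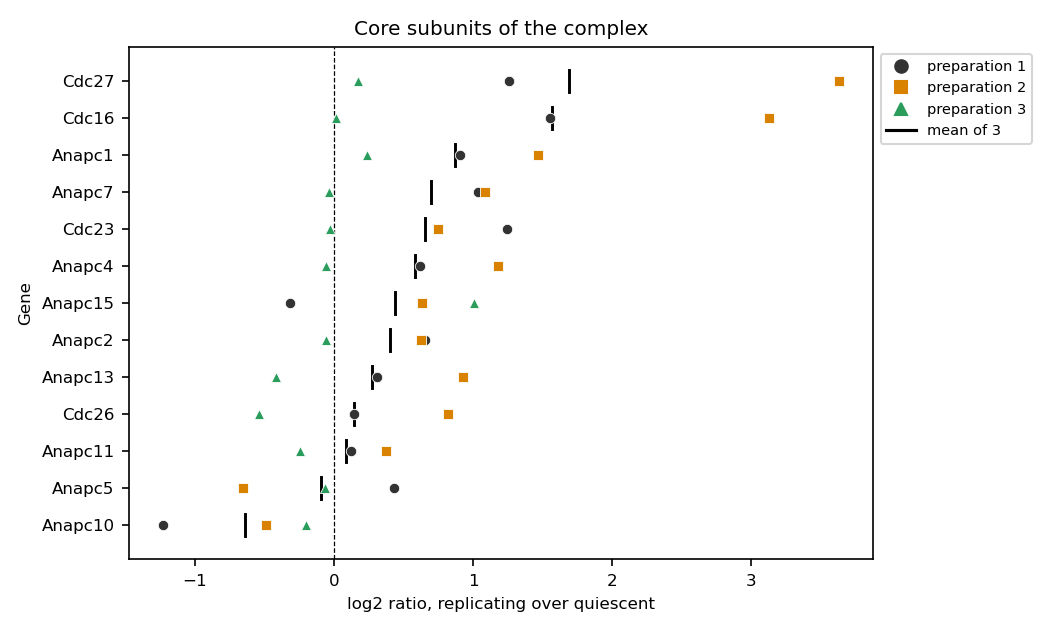
The log2 ratio of replicating over quiescent β-cells (horizontal axis) of the 13 core subunits (rows, 1 probe each) in the 3 preparations, with black bars for the mean. Preparation 3 lies close to 0 for most genes, and the largest values, 3.64 for Cdc27 and 3.13 for Cdc16, come from preparation 2.

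The transcripts of proteins that the complex destroys were read in the same way. Of 25 substrates, 22 were called higher and 0 lower, where 4.18% and 4.47% of all gene names were, and 24 had a ratio above 0 (median 3.38, and 3.44, 2.73 and 3.24 by preparation). The smallest p-values among them were those of Bub1 (4.72), Kif22 (4.64), Nusap1 (3.86), Tpx2 (3.97), Pttg1 (4.39), Nek2 (3.76), Ccnb1 (3.38), Plk1 (5.12), Hmmr (3.92) and Foxm1 (3.31), with mean log2 ratios in brackets. Pttg1 encodes securin and Ccnb1 cyclin B1, the proteins whose loss starts anaphase. Ccnb1 read 10.80, 10.72 and 10.61 in replicating cells. In quiescent cells it read 7.62, 7.24 and 7.13, and the groups did not overlap. The substrates that were not called were Skp2 (0.63), Cdc25a (0.22) and Cdc6 (-0.13), and Cdc6 had -1.84 in preparation 2 beside 0.61 and 0.85. Probes of 1 gene disagreed in places. The brightest Aurka probe gave 3.50 and another -0.27, and dimmer probes of Nek2 and Foxm1 gave 0.13 and 0.46 and were not called. Of the 4 dimmer Cdca5 probes, 2 were called (1.47 and 1.61) and 2 were not (-0.81 and 0.05). The study lists Rrm2, Bub1, Kif22, Ckap2, Nusap1, Pttg1, Tpx2, Plk1 and Nek2 from these same arrays, so the count is not independent of that choice. It also measured some of its leading genes by qPCR, and its assays include Plk1 and Pttg1.

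**Figure D4:**
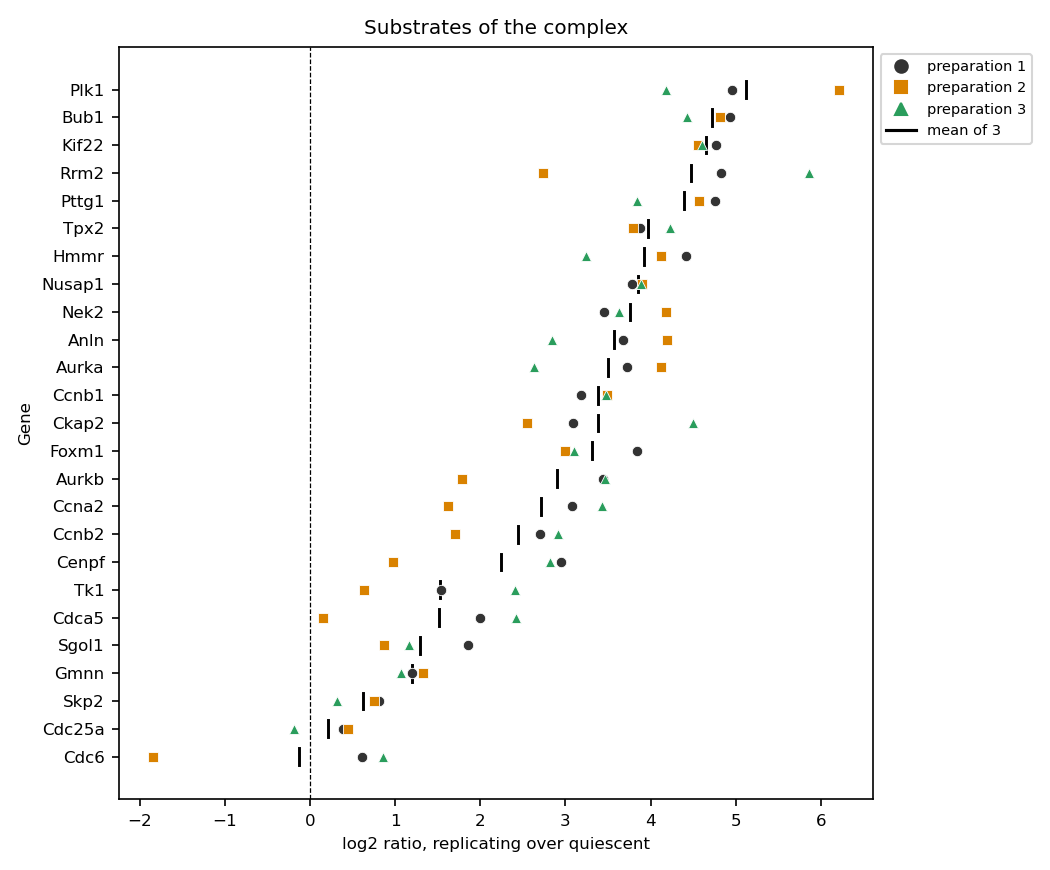
The log2 ratio of replicating over quiescent β-cells (horizontal axis) of 25 substrates (rows, 1 probe each) in the 3 preparations, with black bars for the mean. All but Skp2, Cdc25a and Cdc6 were called higher, and the highest mean is that of Plk1 at 5.12.

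Among 8 other E2s, inhibitors and antagonists of the complex, 1 was called higher and 0 lower (median 0.61). Over all gene names 4.18% were called higher and 4.47% lower, so 1 call in this list or the next is no result about the list. The gene called was Bub1b, a checkpoint kinase-like protein that blocks Cdc20, with ratios of 0.81, 2.23 and 1.04 (mean 1.36, unadjusted p = 0.0204 in limma). The count was 0 without preparation 1 and with 75th percentile scaling, and 3 without preparation 3. Over all probes 509, 647 and 4940 were called higher in these settings, against 1997 in the main fit. Mad2l1, its partner in that checkpoint, gave 3.15, -0.83 and 2.07 with the brightest of its 3 probes (mean 1.46, unadjusted p = 0.126 in limma) and was not called with it. Of its other probes, 1 was called (2.24, unadjusted p = 9.99e-04 in limma) and 1 was not (0.67, unadjusted p = 0.091). In a list of 7 genes of SCF ligases or acting with them, 1 was called higher and 0 lower. The gene called was Wee1 (1.38, unadjusted p = 0.0208 in limma), a kinase that restrains Cdk1 and not a ligase gene. None of the ligase genes in the list was called. The other Wee1 probe was not called (1.02, unadjusted p = 0.212 in limma). In this list 0 genes were called higher without preparation 1 or with 75th percentile scaling. Ccnf, a cyclin of an SCF ligase, gave 2.37, -1.43 and 1.67, and Btrc, which directs the destruction of Fbxo5, gave 0.47, 3.21 and -0.28.

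Markers of other cell types differed between the groups as well, not all in the same direction. Over all gene names 4.18% were called higher and 4.47% lower, and 42.2% had a ratio above 0. Mean ratios were above 0 for 8 of 8 fibroblast and stellate, 4 of 5 immune and 4 of 5 alpha genes. For delta and PP genes it was 2 of 2 each, for acinar genes 4 of 6, for endothelial genes 2 of 4 and for duct genes 0 of 4. In lists this short, 1 or 2 calls are no result about the list. In the fibroblast and stellate list 3 of 8 genes were called higher (Col1a2, Col3a1 and Vim), and the log2 of the summed level was 13.6 to 15.2 in replicating and 12.0 to 12.5 in quiescent arrays. Of 5 immune markers 2 were called higher (Cd68 and Cd74), with sums of 11.2 to 11.5 against 10.3 to 10.9. Of 5 alpha cell markers 1 was called (Gcg, log2 ratio 2.39), with sums of 14.3 to 16.4 against 12.5 to 14.0. Sst, Ppy and Prss1 were called higher in the delta, PP and acinar lists, of 2, 2 and 6 genes, and 0 of 4 duct and 0 of 4 endothelial genes were called. In the acinar list Cela1 (-0.82) and Pnlip (-0.11) had mean ratios below 0, as did Cd3e (-0.52, immune) and Ttr (-0.17, alpha). Duct sums were 12.5 to 12.9 in replicating and 12.9 to 13.8 in quiescent arrays. Acinar sums (12.8 to 16.3 against 11.8 to 15.3) and endothelial sums (11.6 to 12.9 against 11.9 to 13.8) overlapped. Without preparation 1, and likewise with 75th percentile scaling, the immune, delta, PP and acinar lists had 0 genes called higher, the alpha list 1 and the fibroblast and stellate list 2. Over all probes 509 and 647 were called higher in these settings, against 1997 in the main fit. Without the block for preparation the immune list had 1 and the acinar list 0. The fibroblast and stellate list had 5 without preparation 2, and the immune list 3. Without preparation 3, 1 acinar, 1 duct and 2 endothelial genes were called lower and 1 endothelial gene higher. In that setting 4940 of all probes were called higher and 5531 lower. With 75th percentile scaling 1 acinar gene was called lower. Over all 14 alternatives, 1 duct gene was called lower in 6. The part of these cells in the ratios of Ube2c, Ube2s, Fbxo5 and Cdca3 was not tested.

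The genes whose probes were most like Cdc20 and Cdc27 were searched over the 6 arrays, among 27552 probes well above background on all of them. For Cdc20 these were Arid3a (Pearson's r 0.987), LOC103694929 (0.987), LOC103693539 (0.985), Lgr4 (0.984) and Tacc3 (0.983). For Cdc27 they were Zfp709l1 (0.998), Luc7l (0.997), Spry1 (0.997), RGD1561736 (0.997) and Rps6kb1 (0.997). With 6 arrays, of which quiescent array 2 stands apart, and so many probes searched, such values are a description only.

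Promoters are shown for Cdc20, which was not called, and for Fbxo5 and Cdca3, which were called higher, because short motifs in promoters of mitotic genes are known to be read by cell cycle factors. They are the 250 bases before the RefSeq start on the assembly GRCr8, 5′ to 3′ on the strand of the gene, with capitals for the motifs TTTGAA and CCAAT on either strand.
Cdc20, chr5:137255800-137256049, minus strand: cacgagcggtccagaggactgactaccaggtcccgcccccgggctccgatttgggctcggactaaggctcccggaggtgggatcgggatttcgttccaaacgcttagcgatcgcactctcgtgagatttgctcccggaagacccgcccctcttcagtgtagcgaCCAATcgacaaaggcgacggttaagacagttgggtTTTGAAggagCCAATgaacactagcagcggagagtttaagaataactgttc
Fbxo5, chr1:44607782-44608031, minus strand: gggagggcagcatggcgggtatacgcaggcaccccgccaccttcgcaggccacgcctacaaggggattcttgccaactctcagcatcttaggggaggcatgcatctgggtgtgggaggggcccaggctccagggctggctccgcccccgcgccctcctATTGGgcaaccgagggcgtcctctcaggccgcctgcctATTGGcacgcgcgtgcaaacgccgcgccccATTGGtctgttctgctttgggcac
Cdca3, chr4:159320953-159321202, plus strand: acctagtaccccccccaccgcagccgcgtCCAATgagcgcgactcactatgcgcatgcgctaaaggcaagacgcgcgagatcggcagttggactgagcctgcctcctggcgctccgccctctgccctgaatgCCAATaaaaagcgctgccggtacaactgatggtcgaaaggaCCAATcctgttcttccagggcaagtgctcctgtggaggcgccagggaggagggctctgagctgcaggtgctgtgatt
The letters TTTGAA, the usual core of a cell cycle homology region, were in 16.2% of 33469 promoters, TTCGAA in 1.4% and CCAAT in 34.0%. Of the 8 members with a promoter in the table, 1 held TTTGAA (Cdc20), 1 held TTCGAA (Ube2s) and 6 held CCAAT. In Cdc20, TTTGAA lay 51 to 46 bases before the start, with CCAAT at 86 to 82 and at 41 to 37. Fbxo5 and Cdca3 each held 3 copies of CCAAT, and TTTNNCGC, an E2F-like motif present in 4.11% of promoters, was found in Cdca3. None of these searched motifs overlapped another. Either TTTGAA or TTCGAA stood together with CCAAT in 6.31% of promoters and in those of 2 members, Cdc20, which was not called, and Ube2s, which was called higher with its brighter probe (TTCGAA at 217 to 212 and CCAAT at 244 to 240). A match of letters is no evidence of a bound site.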

How the data were processed

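RNA of replicating and quiescent β-cells from 3 islet preparations (pairing from the labels and methods) was measured on 6 Agilent arrays of 1 colour. Per the labels the authors amplified the RNA and labelled it with Cy3. The authors read the intensity of each spot with Feature Extraction 10.7.3.1 and deposited log2 values after normexp and quantile normalization. The deposited log2 values were used here, spots of a probe averaged. They differed by at most 0.116 from values recomputed here from the scanner files with a normexp offset of 50. All 45598 non-control probes were fitted with limma 3.58.1 in R 4.3.3, files being read with the package data.table, version 1.17.8, with the preparation as a block, and p-values were adjusted over all of them. A gene with several probes is counted by its brightest. Every probe of the members is reported; of lists, the core subunits and at most 10 called genes are named, and further named genes (the uncalled substrates and Mad2l1, Ccnf and Btrc) were chosen after their values were seen. Deviations of paired arrays from group means correlated at 0.0552, 0.233 and 0.252. Members and lists were chosen with earlier results of these data known. In a simulation of this comparison with 45598 probes, 200 were changed. Of those changed by 2 on the log2 scale 87% were recovered, and of those changed by 4, 98%. Of unchanged probes 5.94% had an unadjusted p of at most 0.05 in limma. These shares describe the simulated probes and are no measure of recovery on the real arrays. Alternatives were 13 in number, with 1 more chosen after seeing the data. The number of arrays limits the precision. Promoters are from RefSeq (GRCr8).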

Additional observations from a re-analysis of the deposited data

How the results depend on the processing

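Under all 13 alternatives in which they were refitted probe by probe, the brighter probe of Ube2c (2.55 to 3.05), the brighter probe of Ube2s (2.21 to 3.17) and Cdca3 (4.30 to 5.23) kept their direction and their call, and Fbxo5 (1.72 to 2.61) lost its call with 75th percentile scaling alone. The dimmer Ube2c probe lost its call with that scaling too (2.63). Of the 15 probes, 5 were called higher without the replicate block, as with it, 3 with 75th percentile scaling of the processed signal and 8 with cyclic loess, and 4 to 7 when a preparation was left out. Core subunits called higher numbered 2 with normexp offset 16, with cyclic loess, with only probes well above background and with a variance trend, 1 with the median over probes, and 0 to 3 when a preparation was left out. Substrates called higher numbered 17 to 23 over all alternatives. Other E2s, inhibitors and antagonists called higher numbered 0 to 3 over all alternatives, genes of the SCF list 0 to 1 and proliferation markers 2 to 5. Several probes not called turned direction. With 75th percentile scaling, which moved the median of all probes to -0.74 and called 647 probes higher and 3071 lower (17.4% higher, against 51.4% of 1997 and 1887), Cdc20 was 0.11, the Cdc26 probes -0.36 and -0.97 and the dimmer Cdc27 probe -0.031. With cyclic loess the brighter Cdc26 probe was -0.12. The dimmer Ube2s probe, which is near background and from which no direction is read, was 0.11 there. Without preparation 1 Cdc20 was 0.20 and the dimmer Cdc26 probe -0.18. Without preparation 2 Cdc20 was 0.15, Fzr1 0.44 and the Cdc26 probes -0.20 and -0.04. Without preparation 3 none of these turned, with Fzr1 at -0.80 and the Cdc26 probes at 0.48 and 0.45. Without the block and without quiescent array 2, a setting chosen after seeing the data, Cdc20 was 0.16, Fzr1 0.39 and the Cdc26 probes -0.15 and -0.22. Relative to the shifted median under 75th percentile scaling, Cdc20, the brighter Cdc26 probe and the dimmer Cdc27 probe were above it and the dimmer Cdc26 probe below. Member probes with an adjusted p under 0.05 numbered 3 with cyclic loess, 5 in the added setting, 1 without the block, 1 with a variance trend, 1 without preparation 2 and 0 otherwise. In these 5 settings, in that order, 204, 151, 92, 32 and 80 of all 45598 probes passed, and 0 otherwise. Over all probes the calls were 2410 higher and 2653 lower with cyclic loess, and 1866 and 879 without the block. They were 509 and 65 without preparation 1, 1449 and 813 without preparation 2, and 4940 and 5531 without preparation 3. The cause of these changes was not tested.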
